A study of Drosophila melanogaster with 4 samples.

Results

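Isolated H3K4me2 regions are stretches of chromatin that carry histone H3 dimethylated at lysine 4. They lie alone, with at least 25 kb on either side in which no other enriched region was called. They were taken from 3 deposited lists of enriched regions from 3rd instar larvae of Drosophila melanogaster. Members were selected on the called positions of the regions and on their overlap between lists. A member was an enriched region of the combined list on chromosome arm 2L, 2R, 3L, 3R or X that overlapped a region of both replicate lists by at least 1 bp and whose gaps to the previous and the next region of the combined list were each 25 kb or more. This gave 280 isolated regions of the 4991 enriched regions in the combined list. They made up 6.62% of the 4228 regions on these arms found in both replicates, and the remaining 3948 are called the other reproducible regions here.

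The lists came from ChIP-seq, that is, immunoprecipitation of crosslinked, sonicated chromatin with an antibody, named in the labels as H3K4me2-Active motif, followed by sequencing. All 4 samples, 2 immunoprecipitates and 2 inputs, were nuclei of wild-type larvae of the strain Oregon-R-modENCODE, with no treatment given, and no genotype or stage was compared. Each input, chromatin without antibody selection, entered through the calls the authors made against it for the immunoprecipitate of the same replicate number. Replicate 1 had 4752 enriched regions and replicate 2 had 4701. The lists hold no read counts, and the sequencing depth behind them is unknown. Whether the replicates stem from different batches of larvae is not in the labels, and their spread may thus be only technical.

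H3K4 methylation is deposited by complexes of the COMPASS family, which in the fly are built around the methyltransferases Set1, Trithorax and Trithorax-related. Dimethylation marks the flanks of active promoters, where trimethylation peaks at the start site, and it also marks enhancers and genes poised for expression. Long stretches of the fly arms are depleted of such marks in any given tissue, among them gene-poor pericentromeric sequence, the wide intergenic sequence around developmental regulators, and clusters of genes silent outside specialised cells. The larval nuclei came from homogenised tissue, so strong marking in few cells and weak marking in many cells cannot be told apart. Members are described by position in FlyBase release 5, without genes and without sequence, since the gene table at hand follows another release and no genome of release 5 was used here.

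The positions and the replicate overlap that chose the members come from the same calls as their lengths and scores. All values that follow are therefore descriptions, and none was tested. The count of 280 was the same when the free sequence was also required in each replicate list, where the smaller of a member's 2 gaps had a median of 39.2 kb in replicate 1 and 39.2 kb in replicate 2.

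In the combined list the smaller gap of the members had a median of 38.9 kb, with the middle 50% of members between 30.6 and 52.3 kb and a maximum of 199.5 kb. The larger gap had a median of 77.6 kb (middle 50% from 51.5 to 120.5 kb) and reached 367.0 kb. For comparison, the other reproducible regions had a median smaller gap of 2.41 kb and a median larger gap of 13.7 kb. The smaller gap was 50 kb or more for 88 members and 100 kb or more for 16. Gaps of 25 kb or more were common along the arms, numbering 1027 of 4840 gaps between neighbouring combined regions, and they held 71.9 Mb or 60.4% of the 119.0 Mb of the arms. Of these wide gaps, 475 (46.3%) bordered at least 1 isolated region, and the gaps beside isolated regions spanned 33.5 Mb, or 28.1% of the arms. Isolated regions themselves held only 5.18% of the sequence in reproducible regions in replicate 1 and 5.32% in replicate 2.

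The members with the widest free sequence, ranked by the smaller gap, were spread over 4 of the arms. The first were neighbours on 3L, at 24223983 to 24226288 and 24021167 to 24024528, with 199.5 kb between them and a further 303.7 kb and 288.1 kb free on their outer sides. They lay 0.318 and 0.521 Mb from the centromeric end of the assembled arm. The former was 2.26 kb long in replicate 1 and 2.25 kb in replicate 2, and the latter 3.09 and 3.23 kb. Next came 2L 17776779 to 17778823, with 185.4 and 183.8 kb free to its left and right. It was short in both replicates, at 1.94 and 1.62 kb, and its scores of 0.49 and 0.44 were in the lowest 10% of each list. The region at 2R 15713382 to 15719597 was of another kind, with lengths of 6.07 and 6.11 kb, scores of 1.68 and 1.45 close to the middle of each list, and 153.6 and 278.7 kb free. Its right-hand neighbour across the 278.7 kb was 2R 15998309 to 16004198, also a member, with lengths of 5.90 and 5.75 kb and 126.3 kb free beyond it. On X the most isolated region was 22254506 to 22257859, with 219.3 and 151.1 kb free, 0.167 Mb from the centromeric end. It was 3.31 kb long in replicate 1 and 3.08 kb in replicate 2. On 3R it was 11491335 to 11495005, with 117.2 and 116.6 kb free and lengths of 2.94 and 3.40 kb. The other members among the 10 with the widest free sequence were 2L 14850243 to 14852320, 2L 4030510 to 4034702, X 20526117 to 20530683 and 2R 19088983 to 19092114. Very wide free sequence thus surrounded short, weakly scored regions as well as regions of 6 kb.

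Near the limit of 25 kb, the 3 members with the least free sequence were 2L 22469937 to 22474207, 2R 13023965 to 13029254 and X 6113149 to 6121835, with smaller gaps of 25.1, 25.1 and 25.2 kb. The 3 reproducible regions closest below the limit were 2L 5375850 to 5377970, 3R 18606960 to 18609320 and X 2813407 to 2816513, with smaller gaps of 24.9, 24.7 and 24.7 kb. Those inside were 3.09 to 8.66 kb long in replicate 1, and those outside 2.06 to 3.13 kb.

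Isolated regions were unevenly spread over the arms. There were 70 on 3L, 66 on 2L, 62 on 3R, 49 on X and 33 on 2R. As a share of the reproducible regions of each arm, they were most frequent on 2L (8.73%) and 3L (8.25%), followed by X (6.86%) and 3R (6.10%), and least frequent on 2R (3.69%). Per Mb of assembled sequence there were 2.87 on 2L, 2.85 on 3L, 2.22 on 3R, 2.19 on X and 1.56 on 2R. The arm with the fewest, 2R, had the most other reproducible regions, 40.7 per Mb, and the smallest part of its sequence in wide gaps (52.6%). The arm with the highest share, 2L, had 30.0 per Mb and the largest part in wide gaps (64.5%). The rule itself ties these values together, since a member needs a wide gap on both sides. X, with 29.7 other reproducible regions per Mb and 62.1% of its sequence in wide gaps, held 17.5% of all isolated regions (exact binomial 95% interval 13.2 to 22.5, covering counting error only and treating neighbouring regions as independent) and 16.8% of the others.

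Position along the arm differed little between the groups. When each arm was cut into 5 equal parts from the centromeric to the distal end, the parts held 20.0%, 16.8%, 22.5%, 21.8% and 18.9% of the isolated regions and 19.0%, 19.3%, 19.1%, 21.5% and 21.1% of the others. As a share of the reproducible regions in each part, isolated regions varied more on single arms. The rule bears on these shares, since wide gaps have more room where regions are few. In the second part of 2L 13 of 82 reproducible regions were isolated (15.9%). The 5 parts of 2L held 15, 13, 12, 15 and 11 isolated regions among 151, 82, 162, 189 and 172 reproducible ones. On 3L 18 of 153 were isolated in the third part (11.8%) and 21 of 175 in the fourth (12.0%). On X the highest share was in the distal part, with 16 of 152 (10.5%), and on 2R no part exceeded 5.95%.

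**Figure D1:**
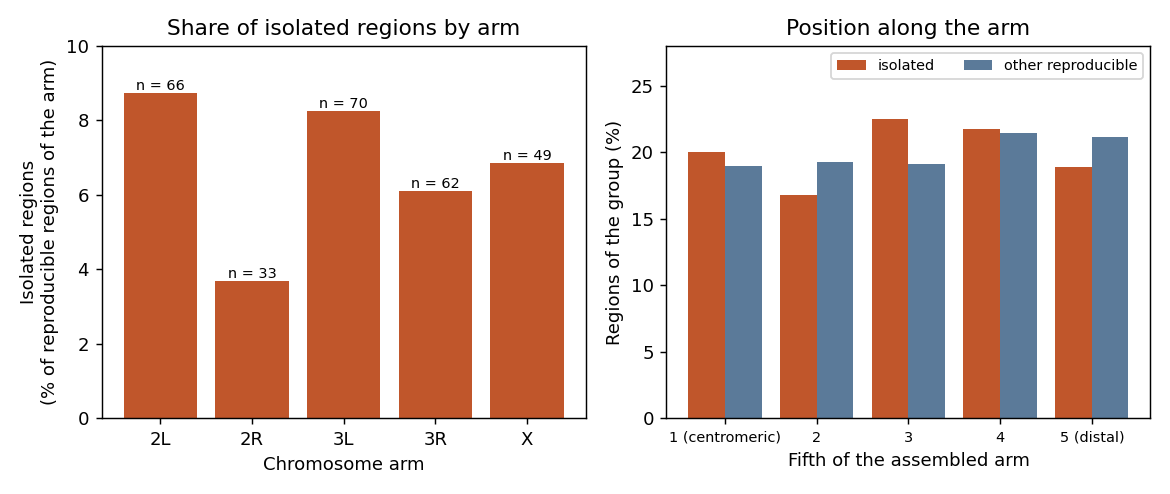
Left, isolated regions as a percentage of the reproducible regions of each arm, with the number of isolated regions above each bar, from 3.69% on 2R to 8.73% on 2L. Right, the percentage of isolated and of other reproducible regions in each of 5 equal parts of the assembled arms, from the centromeric to the distal end; all bars lie between 16.8% and 22.5%.

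Over the 117 complete windows of 1 Mb, the median number of isolated regions was 2, and 15 windows had none. The highest number was 9, in 3L 6000001 to 7000000, where 16 other reproducible regions also lay. Next were 2L 22000001 to 23000000 with 7 and 2L 14000001 to 15000000, X 1000001 to 2000000 and 3R 2000001 to 3000000 with 6 each. In 2L 14000001 to 15000000 the 6 isolated regions were 60.0% of the 10 reproducible regions present. In the 29 windows with the fewest reproducible regions (28 or fewer each), 94 of 633 were isolated (14.8%), and in the 30 windows with the most (44 or more each), 51 of 1461 were (3.49%). Isolated regions were thus found in densely marked windows too. Wide gaps have more room where regions are few, so the rule itself bears on the contrast between these windows.

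An isolated region was the direct neighbour of 137 of the 280 members (48.9%). The rule bears on this count, since only a region with a wide gap can have an isolated neighbour and members have such a gap on both sides. Counted per wide gap, an isolated region lay on the far side of 170 of 560 for the members (30.4%) and of 330 of 1264 for regions with a wide gap on 1 side (26.1%). The share of members with an isolated neighbour was highest on 2L, with 44 of 66 (66.7%), and lowest on 2R, with 11 of 33 (33.3%). The other 143 lay alone between neighbours that were not members. A neighbour could fail the rule on its gaps or on its overlap with the replicate lists. Consecutive isolated regions formed 35 pairs and 17 longer runs, the latter with 67 members. The longest runs had 6 members each, both on 3L. The first spanned 9959807 to 10512353, and regions covered 3.41% of its 729.2 kb when the free sequence at both ends was included. The second spanned 6543010 to 6898696, with 7.87% of 445.0 kb covered. On 2L the longest runs had 5 members, at 1239445 to 1614942 (3.76% of 453.9 kb covered) and 22688976 to 22919687 (5.39% of 308.9 kb). On 3R the longest had 5, at 2640140 to 2825315 (4.53% covered). On 2R it had 4, at 15516394 to 16004198 (2.76% of 738.1 kb), and it ended with the 2 regions of about 6 kb described above. X had no run of more than 3, at 1406264 to 1522870 (16.5% of 179.7 kb) and 4096833 to 4262436 (6.08% of 277.2 kb).

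Members beside another member resembled those that lay alone. In replicates 1 and 2 they had median lengths of 3056 and 3077 bp, against 3001 and 2966 bp for the latter. The share scoring above the list's median was 29.2% in each replicate, against 30.1% and 27.3%.

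Beyond the free sequence that the rule requires, marking approached the level of the arms within about 150 kb. Out to 500 kb it stayed below the level around the other reproducible regions. Just past 25 kb the rule still bears on the values, since no region can lie across that limit. At 25 to 50 kb from the edge of an isolated region, 11.5% of the sequence was covered by combined regions. At 50 to 100 kb it was 15.9%, at 100 to 150 kb 17.1% and at 150 to 200 kb 18.4%, and from there to 500 kb it stayed between 17.7% and 18.5%. The 5 arms as a whole were covered to 18.9%. Around the other reproducible regions the share went the opposite way, from 24.6% at 25 to 50 kb through 21.7% and 20.0% to 19.8% at 150 to 200 kb. At 400 to 500 kb it was 19.9%, against 18.2% around isolated regions. The medians over regions at that distance were 18.9% and 15.9%. No sequence was marked between 25 and 50 kb on either side of 88 isolated regions (31.4%), and of 6.74% of the others. These 88 are the members with a smaller gap of 50 kb or more, since the rule already keeps the first 25 kb free.

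**Figure D2:**
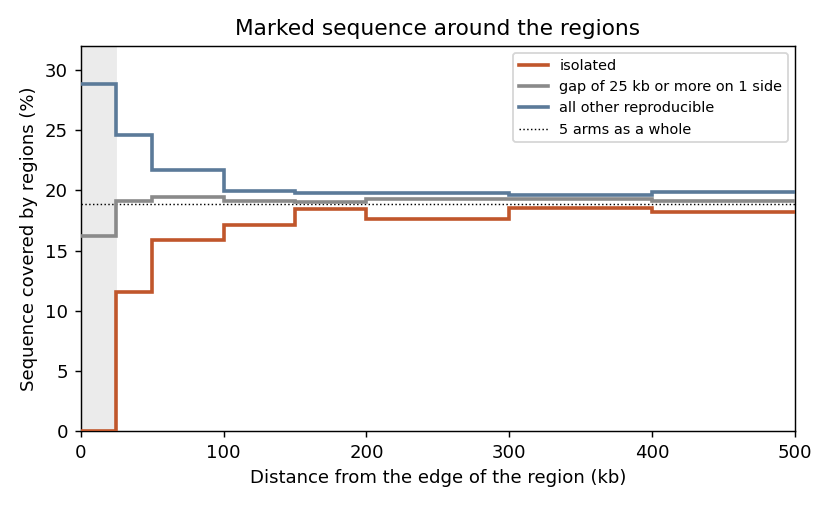
Percentage of sequence covered by combined regions at a given distance (kb) from the edges of isolated regions, of regions with a gap of 25 kb or more on 1 side, and of all other reproducible regions. The grey band is the 25 kb that the rule keeps free around isolated regions; outside it their line climbs from 11.5% to 18.4% at 150 to 200 kb, near the dotted line of the 5 arms at 18.9%.

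Isolated regions were shorter than the others in both replicates. Replicate 1 gave them a median length of 3036 bp and replicate 2 one of 3017 bp, a mean of 3026 ± 13.4 bp (SD, n = 2). The other reproducible regions had medians of 3690 and 3618 bp, a mean of 3654 ± 50.9 bp (SD, n = 2). The isolated median was thus 0.823 times the other in replicate 1 and 0.834 times in replicate 2, and both isolated medians lay below both others. The SD is over 2 replicates of the same regions and does not cover the spread among regions. The middle 50% of isolated regions ran from 2487 to 4131 bp in replicate 1 and from 2463 to 4208 bp in replicate 2, so the bulk of the group overlapped with that of the others (2648 to 5708 bp and 2609 to 5542 bp).

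The difference in length was greatest among the broad regions. Of the 280 members, 49 (17.5%) were 5 kb or longer in replicate 1, against 30.4% of all 4228 reproducible regions, and 46 (16.4%) in replicate 2, against 29.0%. A length of 10 kb was reached by 4 members (1.43%) in replicate 1 and 2 (0.714%) in replicate 2, against 6.76% and 6.13% of all. At the other end, 30 members (10.7%) were under 2 kb in replicate 1 and 29 (10.4%) in replicate 2, against 5.56% and 6.95% of all. The shortest isolated region was 1302 bp long in replicate 1 and 1346 bp in replicate 2, and the shortest of the others 1314 and 1310 bp. The first quartiles differed by far less than the third quartiles.

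Length followed the amount of free sequence in order. The 2684 regions with no gap of 25 kb or more on either side had median lengths of 3835 and 3753 bp in replicates 1 and 2. The 1264 with such a gap on 1 side had 3366 and 3273 bp, between these and the isolated regions. Regions of at least 5 kb became rarer in the same order, from 32.6% ± 1.08 through 26.4% ± 0.839 to 17.0% ± 0.758 (SD, n = 2). Among the isolated regions themselves the order did not continue. Median lengths in replicate 1 were 3073 bp for the 192 with a smaller gap of 25 to 50 kb, 2731 bp for the 72 at 50 to 100 kb and 3161 bp for the 16 at 100 kb or more. In replicate 2 they were 3156, 2738 and 3232 bp. Across the 280 members, Spearman's rho between the smaller gap and length was -0.11 in replicate 1 and -0.12 in replicate 2, a description over regions of 1 library that are not independent. How the region caller joins close stretches is not given in the sources used here. Of the isolated regions 2.14% overlapped more than 1 region of a replicate list in either replicate, against 4.96% and 5.32% of the others, and the part of such joining in the difference of length was not tested.

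**Figure D3:**
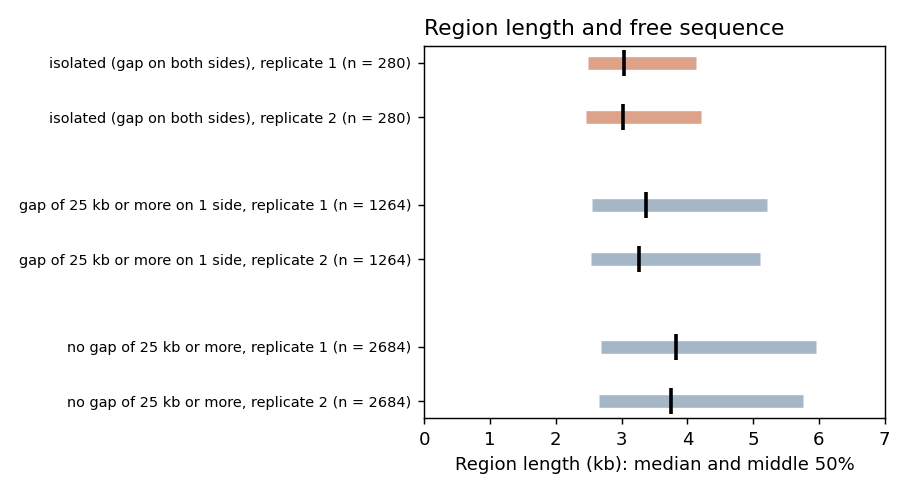
Median length (tick) and middle 50% (bar), in kb, of isolated regions, regions with a gap of 25 kb or more on 1 side and regions with no such gap, in each replicate. The medians go from about 3.0 kb to 3.3 to 3.4 kb to about 3.8 kb, and the upper ends of the bars spread further apart than the lower ends.

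The shorter length of isolated regions was seen on every arm, and it was clearest on X. There the other reproducible regions were the longest of all arms, with medians of 4268 and 4242 bp in replicates 1 and 2, while the isolated ones had 3168 and 3087 bp. On 3R the isolated medians were the lowest, 2723 and 2692 bp, against 3655 and 3615 bp. On 2L they were 2915 and 2940 bp against 3590 and 3555 bp, and on 3L 3222 and 3232 bp against 3607 and 3502 bp. On 2R the 33 isolated regions had medians of 3086 and 3327 bp against 3525 and 3455 bp, the smallest difference of the arms in replicate 2, while in replicate 1 that of 3L was smaller. On that arm the isolated medians of the replicates were further apart than the isolated and other medians of replicate 2.

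A few isolated regions were broad. The longest by far, X 1502210 to 1522870, measured 20.2 kb in replicate 1 and 20.1 kb in replicate 2, with scores of 1.76 and 1.56 and with 28.2 and 35.3 kb free to its left and right. No other member reached 10 kb in both replicates. Next, ranked by the shorter of the replicate lengths, were 2L 21307191 to 21316680 (9.10 and 9.61 kb), X 9974336 to 9984105 (10.4 and 8.71 kb) and 3L 16219786 to 16228732 (8.99 and 8.67 kb). The rest of the first 10 were X 4974023 to 4983109, X 12789735 to 12806163, X 4210430 to 4220459, 2R 6616884 to 6628199, 3L 18984323 to 18994551 and 3L 3370171 to 3378335. X supplied 5 of these 10, and 17.5% of all members. Isolated regions on X were not broad as a group, since 16.3% were 5 kb or longer in each replicate, against 17.5% and 16.4% of all 280. Among the 10 longest, X 12789735 to 12806163 also had very wide free sequence, 110.8 and 173.8 kb, but the replicates differed over it. It was 16.3 kb in replicate 2, whereas replicate 1 split it in 2, of which the part sharing more with the combined region was 8.52 kb.

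The replicates placed isolated regions as closely as they did the others. Starts and ends differed by a median of 62 bp between replicates over 560 edges, against 69 bp over the 7896 edges of the other regions. Differences over 1 kb occurred at 14 of the 560 edges, against 364 of 7896 (4.61%). The 2 lengths of a member were a median of 139 bp apart, and more than 1.5 times apart for 8 members (2.86%), against 4.56% of the others. Isolated regions were longer in replicate 1 in 150 cases (53.6%) and in replicate 2 in 130, while 60.5% of the others were longer in replicate 1. Across members, lengths had a Spearman's rho of 0.96 and scores of 0.97 between replicates. Of the members, 44 (15.7%) were 5 kb or longer in both replicates, against 1119 of the 3948 others (28.3%).

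**Figure D4:**
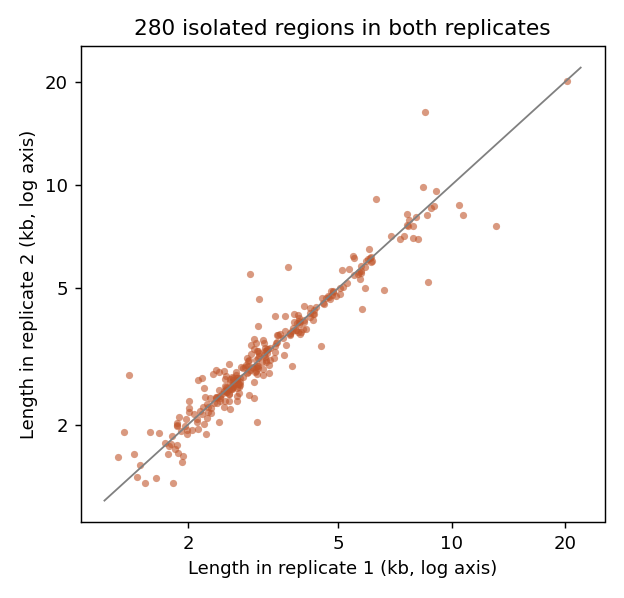
Length of each of the 280 isolated regions in replicate 1 and replicate 2 (kb, log axes), with the line of equal length. Most points lie close to the line, the region of 20 kb on X stands apart at the upper right, and 8 points differ by more than 1.5 times.

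Isolated regions ranked low by the authors' score. The scale of this score is not stated in the sources used here. The score was thus used only as a rank within each list, except where scores are quoted as deposited. Of the members, 83 (29.6%) scored above the median of the replicate 1 list, against 53.6% of all 4228 reproducible regions, and 79 (28.2%) in replicate 2, against 52.0%. Their mean share was 28.9% ± 1.01, and that of the other reproducible regions 54.5% ± 1.18 (SD, n = 2). Both replicates put 74 members above the median and 192 below it, and 14 members were above it in 1 list only. On a scale from 0 for the lowest to 100 for the highest score of a list, the median member ranked at 34.7 in replicate 1 and 31.7 in replicate 2, and the median of the others at 54.9 and 53.5. In the lowest 25% of scores were 92 members (32.9%) in replicate 1 and 96 (34.3%) in replicate 2, against 20.5% and 22.3% of all. In the highest 10% were 9 members (3.21%) in each replicate, against 10.8% and 10.4% of all. Regions with a gap of 25 kb or more on 1 side again lay between, with 49.1% and 47.2% above the median, and those with no such gap had 58.3% and 56.7%.

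Length and score moved together among the isolated regions, with a Spearman's rho of 0.71 in replicate 1 and 0.70 in replicate 2 across members, which share a library. From 2.5 kb upward, isolated regions scored above the median less often than others of like length. From 2.5 to 3 kb, 18 of 63 isolated regions (28.6%) scored above the median in replicate 1, against 373 of 761 others (49.0%), and 15 of 66 (22.7%) against 336 of 745 (45.1%) in replicate 2. From 3 to 4 kb it was 17 of 70 (24.3%) against 47.2% in replicate 1, and 16 of 60 (26.7%) against 51.4% in replicate 2. The difference was also present among longer regions, from 5 to 7.5 kb, with 16 of 30 (53.3%) against 78.3% and 17 of 29 (58.6%) against 78.5%. Among shorter regions the order of the median ranks differed between the replicates. Under 2 kb no region of either group scored above the median, and the median ranks were 3.87 for isolated and 4.90 for other regions in replicate 1, and 5.70 and 4.66 in replicate 2. From 2 to 2.5 kb, 1 of 42 isolated regions (2.38%) against 8.98% of the others scored above the median in replicate 1, and 2 of 45 (4.44%) against 9.22% in replicate 2, while the median ranks were 20.3 against 19.8 and 18.5 against 20.2. When the other regions were weighted to the lengths of the isolated ones, 45.5% of them in replicate 1 and 45.3% in replicate 2 scored above the median, between the 29.6% and 28.2% of the isolated regions and the 55.3% and 53.7% of the unweighted others.

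**Figure D5:**
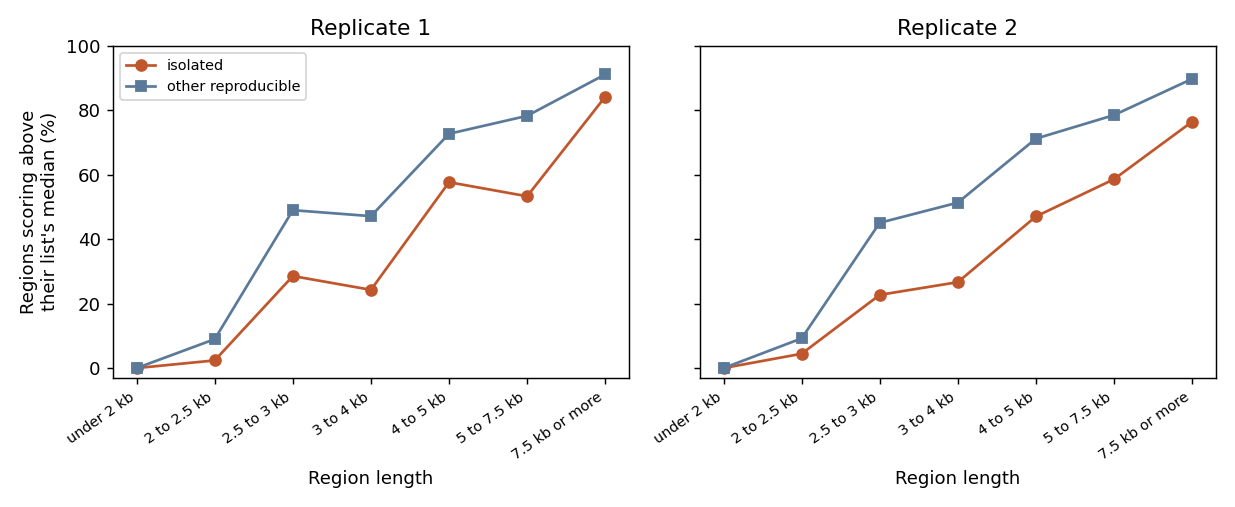
Percentage of isolated and of other reproducible regions that scored above the median of their list, by length class, in each replicate. Both lines climb with length, both are at 0 under 2 kb, and the isolated line is below the other in each longer class of both replicates.

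By arm, the share of members above the list's median was lowest on 2L, with 13 of 66 (19.7%) in replicate 1 and 12 of 66 (18.2%) in replicate 2. The other arms had 31.4% (3L) to 36.4% (2R) in replicate 1, and 28.6% (X) to 33.3% (2R) in replicate 2. Among the other reproducible regions 2L did not stand apart, with 54.5% and 52.5%. X members, whose arm had the highest share among the other regions (59.7% and 59.5%), had 32.7% and 28.6%. As with length, wider free sequence among the members brought no further step: 30.7%, 26.4% and 31.3% scored above the median in replicate 1 at smaller gaps of 25 to 50 kb, 50 to 100 kb and 100 kb or more, and 29.7%, 23.6% and 31.3% in replicate 2.

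Some isolated regions had high score ranks. The highest, by the mean of the ranks in both lists, were 2L 2490769 to 2495045 and 3R 12973112 to 12979207. The former was 4.21 kb long in replicate 1 and 4.22 kb in replicate 2, with scores of 2.46 and 2.15. The latter was 5.92 and 5.99 kb long, with scores of 2.38 and 2.21, and had 27.5 kb free on its left and 225.7 kb on its right. They were followed by 3R 9945991 to 9953744, 3R 4385710 to 4391815 and 2L 1609243 to 1614942, which were 5.57 to 7.64 kb long. The last of these closed the first of the runs of 5 on 2L. At the low end were 3L 13858658 to 13860548, 2L 7608167 to 7609719, 3R 2823721 to 2825315, 3L 22990984 to 22992849 and 2R 18884707 to 18886676, all under 2 kb in both replicates and with scores of 0.25 to 0.39. The first of them had 289.4 kb free on its left.

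Regions with wide gaps on both sides were found in both replicates about as often as the rest. Of the 318 combined regions on the arms with 25 kb or more free on both sides, 280 (88.1%) overlapped both replicate lists, against 3948 of 4527 (87.2%) for the other combined regions on the arms. The 38 that failed this criterion overlapped only replicate 1 in 17 cases, only replicate 2 in 7 and neither in 14. Their median length in the combined list was 1519 bp and their median score 0.31, against 3279 bp and 1.14 for the members in the same list. The overlap with both replicates is part of the rule, so this sets out what it removed.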

How the data were processed

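H3K4me2 ChIP-seq lists of 2 immunoprecipitates and their combination were analysed. The submitters' processing notes name Bowtie 0.12.7, a read aligner. The deposited score of each region was given by the authors on a scale not stated in the sources used. The score was used only as a rank within a list, apart from single scores and medians of the combined list quoted as deposited. Which region caller and thresholds were used, and how the combined list was made, was not stated in these sources. Coordinates are those of FlyBase release 5, per the file headers. They count from 1 with both ends included.

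A gap is the number of bases between 2 neighbouring enriched regions of the combined list. The 3 depleted regions of that list did not count as neighbours. First and last regions of an arm have only 1 neighbour and were not members. For each combined region, length and score in a replicate were those of the replicate region sharing most bases with it. The centromeric end of each arm was taken from textbook orientation. Mean and SD are over 2 replicates. Median edge differences have exact binomial order-statistic 95% intervals, which treat all edges as independent. Depth is unknown, so no interval from read counts could be given.

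The selection code was tested on simulated lists. The members and lists were chosen with earlier results of these data known. Named regions were those with the widest free sequence, the longest, the highest and lowest in score rank, those nearest the limit, the most isolated per arm, and the longest runs per arm. All regions with values of their own fell under this rule, except the windows of 1 Mb, which were chosen after their values were seen. Alternatives were gaps of 20 and 50 kb, other definitions of neighbours and overlap, higher-scoring regions only, combined in place of replicate values, a limit of 3 kb and leaving out each replicate. Counting depleted regions as neighbours was added after seeing the data. Python 3.11.15, numpy 2.4.6, pandas 2.3.3, scipy 1.17.1 and matplotlib 3.10.9 were used.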

Additional observations from a re-analysis of the deposited data

How the results depend on the processing

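Isolated regions were shorter, less often 5 kb or longer, and less often above the list's median score than the others under all 11, 11 and 9 alternatives tried for these results. Some of these could hardly differ from the main setting. Free sequence also required in each replicate list, 50% of the combined region covered in each replicate, and arm ends counted as gaps returned the same 280 members with the same values. A gap of 50 kb left 88 members, with a median length of 2805 bp, 14.2% at 5 kb or more, 26.1% above the median score, 12.5% on X and 34.1% next to another member. A gap of 20 kb gave 394 members, 2973 bp and 58.9% next to another. Counting as neighbours only regions found in both replicates gave 348 members, 3084 bp, 19.8%, 30.5% and 55.2% next to another. With only regions above the median combined score there were 333 members, of which 90 were among the 280, with 4253 bp, 37.5% at 5 kb or more, 61.6% next to another and a median edge difference of 50.5 bp. Combined regions in place of replicate ones gave 3279 bp, 21.1% and 32.1%, and a limit of 3 kb gave 50.9%. Without a replicate, the median length was 2971 to 2989 bp, the share at 5 kb or more 16.0% to 16.5%, and the share above the median 27.5% to 28.3%. The cause of these shifts was not tested. Median edge differences need both replicates. The other 42 of 66 alternatives stayed within 1 SD of the main value, its 95% interval, or, for the count, 1.5 times, and several changed no member. The 95% intervals treat neighbouring regions, and the edges of a region, as independent. Most alternatives also contained all 280 members, so staying within these limits was partly fixed in advance. No paired analysis was possible because no list of values for the input samples was used. Depth is unknown, so its part in weak or short calls was not assessed.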
